A study of Mus musculus with 2 samples.

Results

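The scavenger and lectin receptors of the liver sinusoid were followed through 2 single-cell RNA libraries of mouse liver. They were taken by symbol as 10 genes, Stab1, Stab2, Clec4g, Lyve1, Mrc1, Fcgr2b, Oit3, Dnase1l3, Clec1b and F8, of 32285 genes in the table, and each symbol matched 1 row. Liver sinusoidal endothelial cells line the blood channels between plates of hepatocytes and take up waste molecules from blood through receptors of this kind. Stabilins, the mannose receptor and an Fc receptor bind modified proteins, glycans, hyaluronan and immune complexes, which clathrin-coated vesicles carry to lysosomes. The same cells are a main source of coagulation factor VIII and release a DNase that degrades circulating chromatin. In adult mouse liver Stab2 and Lyve1 are lower in endothelium of larger vessels than in sinusoids, and Rspo3 is made by endothelium at the central vein.

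By its label the library P180 came from liver at postnatal day 180, and the library E18.5 from embryonic liver at the day it names. The labels do not give how many animals a library holds. The animals of both libraries were Hhex knockout, and had received tetraploid (4N) embryonic stem cells carrying tdTomato when they were blastocysts. Such animals are chimaeras. The gene table holds 0 tdTomato rows, so cells of the host and cells from the injected line cannot be told apart here. Neither a diploid control nor a Hhex wild-type liver is among these libraries. The sources used here do not give whether the Hhex deletion covered the whole animal. With 1 library for each label no test between labels could be made, and no p-value is given. Differences between the libraries may belong to the animal, the stage, the dissociation, the sequencing run or an exchange of the labels, which cannot be told apart.

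After filters 8847 cells were used with the P180 label and 4543 with the E18.5 label, at medians of 5904 and 4721 UMIs (unique molecular identifiers, each counting 1 captured transcript). Median mitochondrial shares over all barcodes were 0.655% and 16.7%, and 98.1% and 47.8% of barcodes passed the filters. Erythroid-like cells made up 78.0% of cells labelled P180 and 0.528% of cells labelled E18.5, the reverse of what is known of fetal and adult liver, so no direction with age is drawn from any value below. Hhex stood at 42.7 CPM (a gene's UMIs as counts per 1000000 UMIs of its group) with the P180 label and 99.2 CPM with the E18.5 label. As the injected cells carry Hhex and the 3′ tags need not lie in the deleted part, this level does not check the genotype. The libraries shared 28 cell barcodes, 11 of them among the cells used and 0 among endothelial-like cells.

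Endothelial-like cells, named by general endothelial markers such as Kdr, Ptprb and Flt1 with the 10 genes left out of the clustering, numbered 111 with the P180 label and 1016 with the E18.5 label. They were divided by which of Stab2, Rspo3 and Mecom was highest in a cluster relative to its mean over endothelial-like clusters. Of cells labelled P180, 55 fell in the Stab2 subset, 32 in the Rspo3 subset and 24 in the Mecom subset. Of cells labelled E18.5, 500 fell in the Stab2 subset, 196 in the Rspo3 subset and 320 in the Mecom subset. The Stab2 subset labelled E18.5 joined a cluster of 332 cells with Rspo3 at 16.3 CPM and a cluster of 168 cells with Rspo3 at 1262 CPM. Rspo3 itself stood at 2223 and 6052 CPM in the Rspo3 subsets labelled P180 and E18.5, and Mecom at 1002 and 2207 CPM in the Mecom subsets. In the subset of 24 cells labelled P180, Mecom was found in 9 cells (37.5%) and 104 of its 225 UMIs came from 1 cell, without which its level was 579 CPM. Stab2 stood at 1131 CPM there, in 87.5% of cells, and 8 endothelial-like cells labelled P180 had Mecom as the gene with most UMIs of the 3. These values go against the name, so for the P180 label Mecom subset means the outcome of the rule and no kind of cell. The Rspo3 and Mecom subsets labelled P180 hold under 50 cells each, so their values are descriptions of few cells. Since Stab2 took part in this division, its level in a subset is no finding, and it is left out of every count of members in subsets.

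The 10 genes lie on 8 mouse chromosomes (mm10, GENCODE M21). Stab1 (chr14:31139013-31168641, minus strand) and Stab2 (chr10:86841198-87008025, minus strand) each have 69 exons in their longest transcript. Clec4g lies at chr8:3707064-3720651 and Fcgr2b at chr1:170958617-170976547, both on the minus strand. Lyve1 (chr7:110850607-110863239), Oit3 (chr10:59422958-59441778) and Dnase1l3 (chr14:7964533-7994573) overlap no other annotated gene. Clec1b (chr6:129397297-129409335, plus strand) shares 474 bases with its neighbour Clec9a on the same strand, a dendritic cell lectin, so reads from the shared stretch cannot be assigned by position alone. Mrc1 (chr2:14229392-14332057, plus strand) holds the microRNA gene Mir511, and F8 (chrX:75172715-75382615, minus strand) overlaps Gm8522 on its own strand. Stab1, Stab2, Clec4g, Fcgr2b and F8 have partners on the opposite strand, and the sources used here do not give how strand entered the authors' counting.

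Promoter windows, from 250 bases before to 50 after the start site, were found in RefSeq (GRCm38.p6) for 7 of the 10 genes; Lyve1, Oit3 and Dnase1l3 had no entry. The words searched, on both strands, were for GATA factors AGATAA or AGATAG as well as TGATAA or TGATAG, and for ETS factors of endothelium AGGAAG or AGGAAA. The factor Gata4 is known to specify sinusoidal endothelium. A GATA word was found in 4 of the 7 windows against 29.8% of 32851 promoters, and an ETS word in 6 of 7 against 53.4%. With 7 windows these counts are a description only. The windows of the 2 stabilins, which are of 1 family, and of Clec4g and Fcgr2b, which were lower by 2-fold or more with the P180 label in the Stab2 subset, are printed 5′ to 3′ on the gene's strand with the words in capitals.
Stab1 (chr14:31168592-31168891, minus strand): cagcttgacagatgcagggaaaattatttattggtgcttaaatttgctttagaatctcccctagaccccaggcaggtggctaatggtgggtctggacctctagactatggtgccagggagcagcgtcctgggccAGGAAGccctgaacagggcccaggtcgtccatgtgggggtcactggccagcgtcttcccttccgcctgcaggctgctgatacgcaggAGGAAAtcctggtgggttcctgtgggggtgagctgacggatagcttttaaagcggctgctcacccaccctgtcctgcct
Stab2 (chr10:87007893-87008192, minus strand): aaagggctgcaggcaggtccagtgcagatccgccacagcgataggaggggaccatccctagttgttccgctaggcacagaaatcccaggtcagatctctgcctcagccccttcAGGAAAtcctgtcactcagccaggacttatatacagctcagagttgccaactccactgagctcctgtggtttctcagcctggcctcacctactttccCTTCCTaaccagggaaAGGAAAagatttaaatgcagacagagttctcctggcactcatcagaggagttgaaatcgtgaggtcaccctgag
Clec4g (chr8:3720602-3720901, minus strand): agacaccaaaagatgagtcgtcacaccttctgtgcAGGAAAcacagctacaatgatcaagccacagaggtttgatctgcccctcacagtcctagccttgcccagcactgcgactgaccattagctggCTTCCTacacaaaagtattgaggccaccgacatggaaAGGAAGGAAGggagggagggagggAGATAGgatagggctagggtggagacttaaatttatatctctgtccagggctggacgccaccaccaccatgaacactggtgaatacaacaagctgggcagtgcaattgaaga
Fcgr2b (chr1:170976022-170976321, minus strand): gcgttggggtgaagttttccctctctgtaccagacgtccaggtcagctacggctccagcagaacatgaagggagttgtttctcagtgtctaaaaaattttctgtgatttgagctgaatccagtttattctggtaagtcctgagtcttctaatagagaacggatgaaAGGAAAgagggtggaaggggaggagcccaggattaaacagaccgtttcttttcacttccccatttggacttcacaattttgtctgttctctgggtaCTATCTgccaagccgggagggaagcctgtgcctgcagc
The stabilin windows hold ETS words only, 2 in Stab1 and 3 in Stab2. The Clec4g window holds 1 GATA word and 4 ETS words, of which 2 overlap, and the Fcgr2b window holds 1 of each. GATA words also occur in the windows of Clec1b and F8, with 2 each, and not in that of Mrc1.

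Endothelial-like cells held most transcripts of these genes in both libraries. In the library labelled P180 they were 1.25% of cells and held 64.9% of the UMIs of the 10 genes, and in the library labelled E18.5 they were 22.4% of cells and held 84.3%. Summed over the 10 genes, endothelial-like cells stood at 5175 CPM against 22.0 CPM in all other cells with the P180 label, and at 5346 CPM against 158 CPM with the E18.5 label. Each of the 10 was at least 2-fold higher in endothelial-like than in other cells in both libraries. The same held for 50.3% of 6509 genes with the P180 label, where the median gene itself lay 1.01 higher on the log2 scale, and for 22.8% of 7194 genes with the E18.5 label. None of the 10 was lower by 2-fold, beside 10.8% and 16.9% of these genes with the P180 and E18.5 labels. By gene, the share of UMIs in endothelial-like cells lay over 90% in both libraries for Stab2 (96.4% and 92.9% with the P180 and E18.5 labels), Clec4g (93.8% and 95.5%) and Oit3 (97.7% and 96.0%). By this measure Fcgr2b was the least endothelial member with the P180 label, at 6.80% against 62.0% with the E18.5 label. Clec1b, at 44.95% with the P180 label and 55.6% with the E18.5 label, was the least endothelial in the library labelled E18.5. These shares depend on how many cells of each type a library holds.

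**Figure D1:**
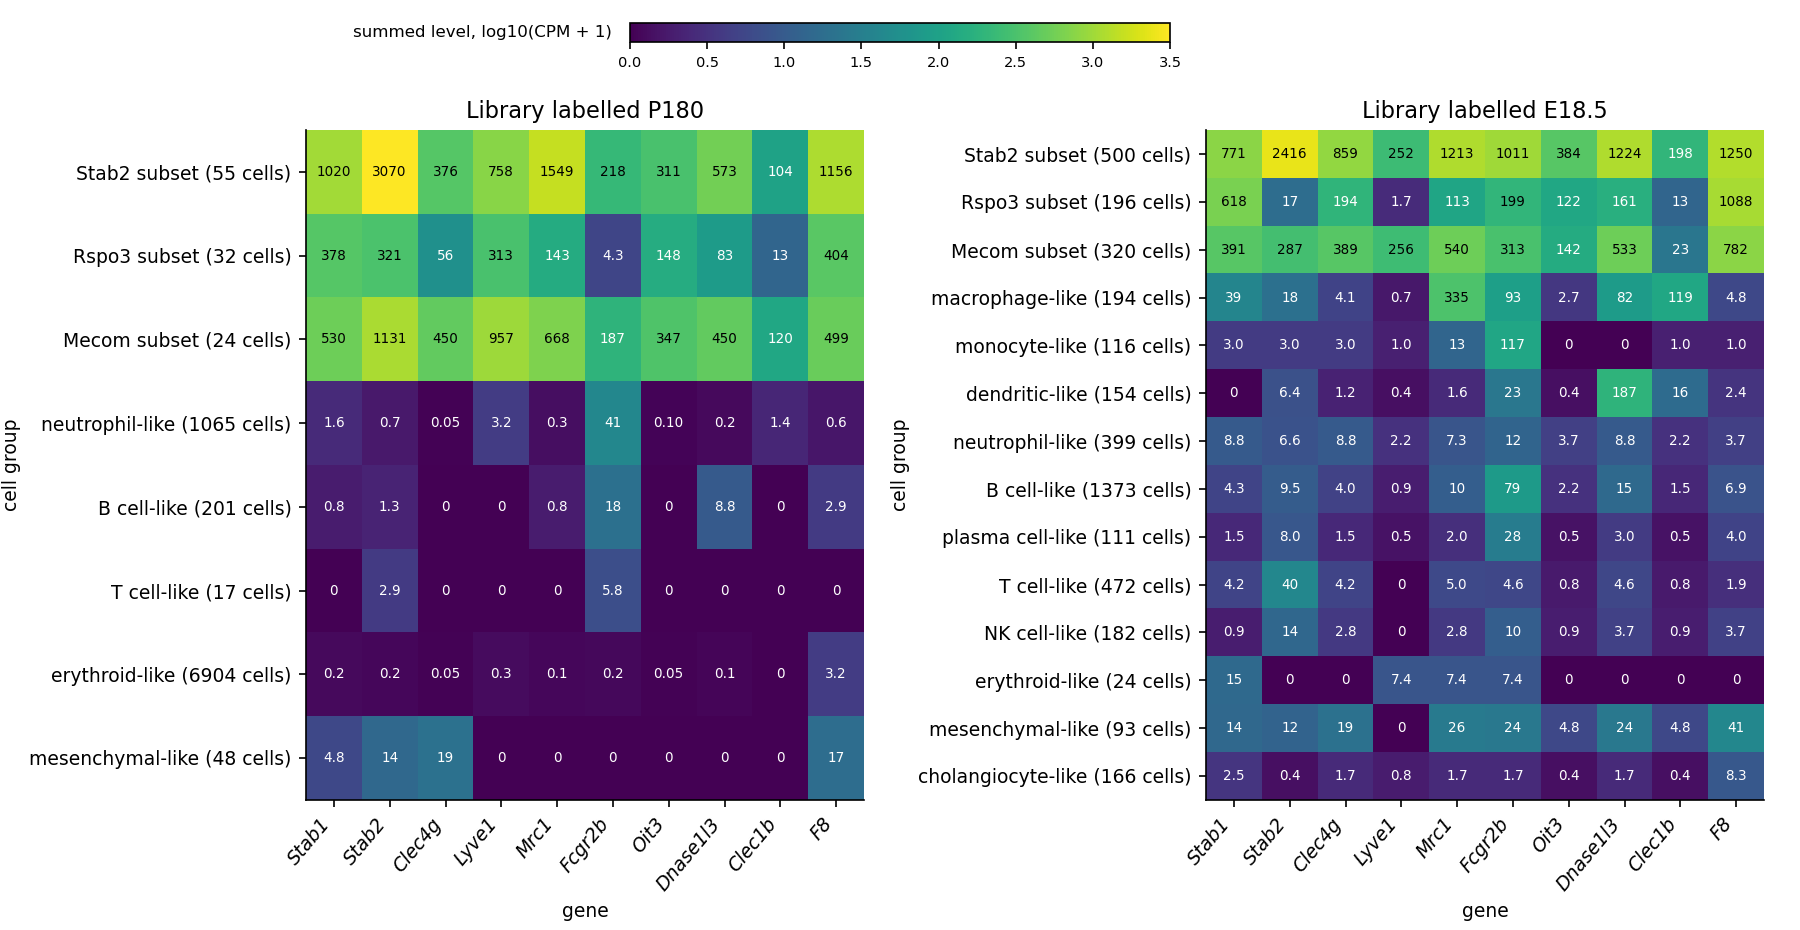
Summed level of the 10 genes in endothelial-like subsets and other cell groups, with the library labelled P180 on the left and the library labelled E18.5 on the right; colour is log10(CPM + 1) and the printed number is CPM. The upper 3 rows, the endothelial-like subsets, are bright in nearly every column, while Mrc1, Fcgr2b, Dnase1l3 and Clec1b also stand out in leukocyte rows. Clusters without a name are not shown.

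The stabilins and the mannose receptor differed by less than 2-fold between the libraries. Stab1, a receptor for oxidised lipoproteins and for the matrix protein Sparc, stood at 616 CPM (556 to 680) in endothelial-like cells labelled P180 and 589 CPM (565 to 613) in those labelled E18.5. These exact Poisson 95% intervals, like all others here, cover counting error only and leave out the spread between animals. Stab2, the hyaluronan clearance receptor, stood at 1396 CPM (1306 to 1491) with the P180 label and 936 CPM (906 to 966) with the E18.5 label, a log2 ratio of 0.58 (0.47 to 0.68). A Stab2 UMI was found in 76.6% and 52.4% of these cells, and a Stab1 UMI in 91.0% and 78.6%. As background, 0.101% of erythroid-like cells labelled P180 carried a Stab2 UMI and 0.145% a Stab1 UMI, the median depth of those cells being 5238 UMIs and that of endothelial-like cells 3413 UMIs. Mrc1, the mannose receptor, which takes up collagen fragments and lysosomal enzymes, stood at 732 CPM (667 to 801) with the P180 label and 643 CPM (619 to 669) with the E18.5 label. The ratios of the P180 label over the E18.5 label were 1.05 for Stab1, 1.49 for Stab2 and 1.14 for Mrc1.

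Lyve1, a hyaluronan receptor of lymphatic vessels and sinusoids, was the member past 2-fold on the higher side with the P180 label. Its level was 667 CPM (606 to 734) in endothelial-like cells labelled P180 and 179 CPM (166 to 192) in those labelled E18.5, a ratio of 3.74 (3.31 to 4.22). A Lyve1 UMI was found in 64.0% (54.3 to 72.9) of these cells with the P180 label and 23.1% (20.6 to 25.8) with the E18.5 label. With each cell thinned once at random to 1000 UMIs the shares were 35.5% and 13.3%. A single cell gave 89 of the 426 Lyve1 UMIs counted with the P180 label; without the richest cell of each library the log2 ratio was 1.70 in place of 1.90. Of 6 genes of lymphatic endothelium, Flt4, which sinusoidal endothelium also expresses, stood at 299 and 247 CPM with the P180 and E18.5 labels. The other 5 stood under 10 CPM in both groups. Ccl21a had 0 UMIs in both, Pdpn 0 and 1, Mmrn1 0 and 6, Reln 4 and 35, and Prox1 5 and 25 UMIs.

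Fcgr2b, the inhibitory receptor for IgG that carries small immune complexes into sinusoidal cells, was the member past 2-fold on the lower side with the P180 label. Its level was 130 CPM (104 to 161) with the P180 label and 518 CPM (496 to 541) with the E18.5 label, 3.98-fold lower (log2 ratio -1.99, -2.33 to -1.68). An Fcgr2b UMI was found in 27.0% (19.0 to 36.3) and 64.7% (61.6 to 67.6) of endothelial-like cells. After thinning these shares were 11.8% and 36.8%. Among the C-type lectins, Clec4g, known as LSECtin, stood at 287 CPM (247 to 331) and 492 CPM (470 to 514), a log2 ratio of -0.78 (-1.01 to -0.56). Clec1b, known as CLEC-2 and a receptor for podoplanin on platelets, stood at 76.8 CPM (56.8 to 101) and 79.5 CPM (71.0 to 88.9), with an interval of the log2 ratio from -0.52 to 0.39.

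Of the secreted products, Dnase1l3 and F8 stood lower with the P180 label by less than 2-fold. Dnase1l3, the DNase of circulating chromatin, stood at 352 CPM (308 to 402) in endothelial-like cells labelled P180 and 659 CPM (634 to 685) in those labelled E18.5. F8, coagulation factor VIII, stood at 653 CPM (592 to 719) and 1033 CPM (1002 to 1065). Their log2 ratios were -0.90 (-1.10 to -0.70) and -0.66 (-0.81 to -0.52). Oit3, a protein with a zona pellucida domain, stood at 265 CPM (226 to 308) and 219 CPM (205 to 234).

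Over all endothelial-like cells, 1 of the 10 was therefore higher by 2-fold or more with the P180 label, against 7.31% of 7049 genes. Likewise 1 of the 10 was at least 2-fold lower, against 6.72% of these genes, and 8 lay between. The median log2 ratio of the 10 was 0.01, beside 0.08 over all 7049 genes. The shares of the 10 are near those of all genes. The count lower depends on the setting, since Clec4g and Dnase1l3 lie close to 2-fold. It was 3 when each cell weighed equally, 3 without cells holding a macrophage gene UMI and 2 with no doublets left out. Fcgr2b kept log2 ratios from -2.13 to -1.74 and Lyve1 from 1.57 to 2.04 over all 11 other settings.

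Within the Stab2 subset the same genes stood apart, and Clec4g and Dnase1l3 passed 2-fold as well. Lyve1 stood at 758 CPM (637 to 895) with the P180 label and 252 CPM (226 to 280) with the E18.5 label, a ratio of 3.01 (2.46 to 3.68). Fcgr2b stood at 218 CPM (156 to 297) and 1011 CPM (958 to 1066), 4.63-fold lower with the P180 label. Clec4g stood at 376 CPM (293 to 476) and 859 CPM (810 to 910), 2.28-fold lower, and Dnase1l3 at 573 CPM (468 to 693) and 1224 CPM (1165 to 1284), 2.14-fold lower. The intervals of the log2 ratios of Clec4g (-1.56 to -0.84) and Dnase1l3 (-1.39 to -0.81) include 2-fold. Clec1b stood at 104 CPM (19 UMIs) and 198 CPM, a log2 ratio of -0.93 (-1.69 to -0.26).

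The remaining members of the Stab2 subset lay within 2-fold. Stab1 stood at 1020 CPM with the P180 label and 771 CPM with the E18.5 label, Mrc1 at 1549 and 1213 CPM, F8 at 1156 and 1250 CPM, and Oit3 at 311 and 384 CPM. Of the 9 genes counted, leaving out Stab2, 1 was at least 2-fold higher against 11.0% of 6697 genes and 3 were lower against 10.1%, with 5 between. Their median log2 ratio was -0.30, beside 0.10 over all genes. These counts move with the mitochondrial limit. With a limit of 10%, which left 44 and 71 cells in the subset, 5 were lower and 0 higher, Lyve1 then having a log2 ratio of 0.78. With no limit, which gave 74 and 1537 cells, Fcgr2b alone was lower by 2-fold. Fcgr2b stayed past 2-fold in each of the 13 settings, from -2.88 to -1.79.

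**Figure D2:**
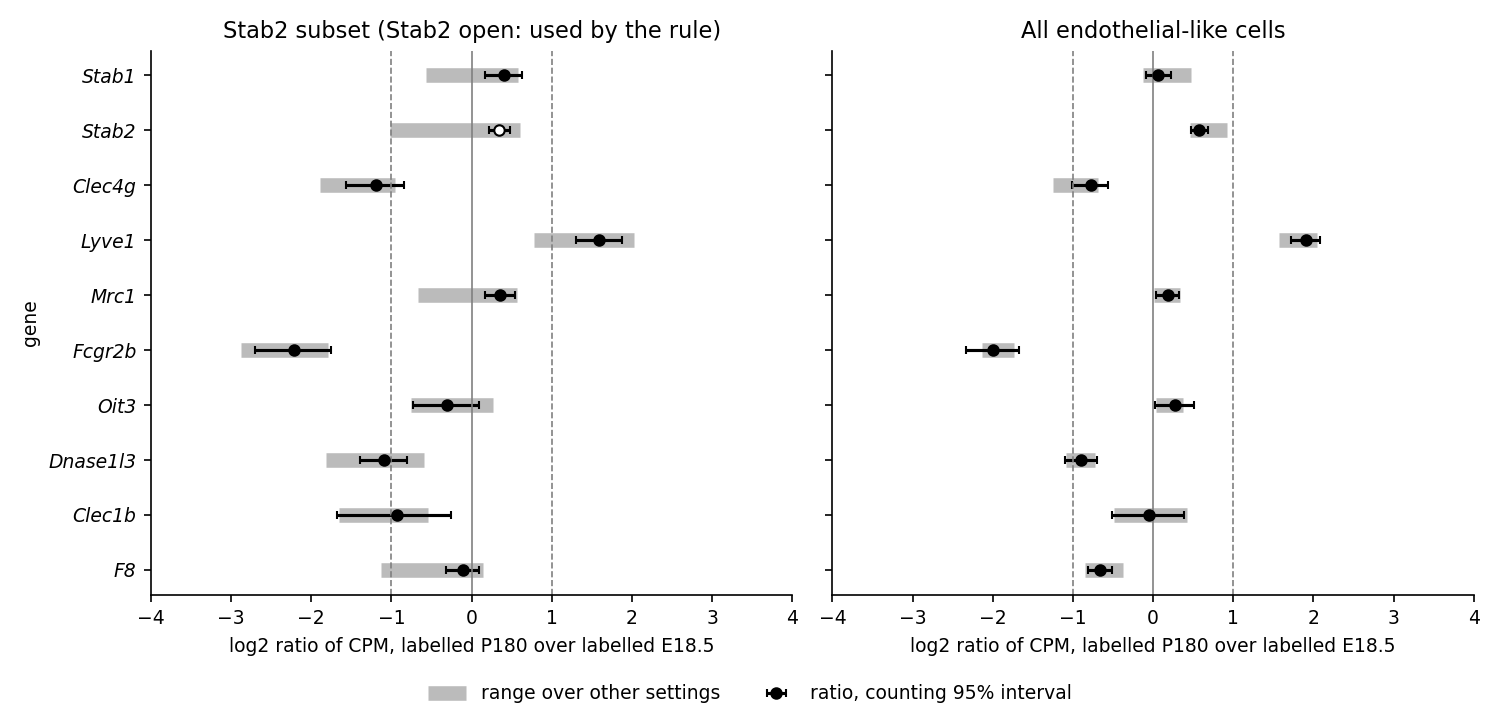
Log2 ratio of CPM, P180 label over E18.5 label, for each gene in the Stab2 subset (left) and all endothelial-like cells (right). Points carry the counting 95% interval, grey bars the range over other processing settings and dashed lines 2-fold; Lyve1 lies to the right of 1 and Fcgr2b to the left of -1 in both panels, except that the grey bar of Lyve1 reaches 0.78 in the Stab2 subset.

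Genes that mark the same cells or act with the 10 were counted beside them. Of all 7049 genes in endothelial-like cells, 7.31% were higher and 6.72% lower by 2-fold or more with the P180 label. Of 16 other sinusoid genes in endothelial-like cells, 0 were higher by 2-fold or more with the P180 label, 2 were lower and 14 lay between (median -0.35). Those lower were Cd300lg, at 37.6 and 198 CPM, and Bmper, an antagonist of BMP signals, at 26.6 and 84.4 CPM. In the Stab2 subset 4 of 15 were lower, beside 10.1% of 6697 genes, and 0 higher, beside 11.0%. Among those lower was Wnt2, the Wnt ligand of central sinusoids, at 16.4 CPM (3 UMIs) and 164 CPM. The others of the 4 were Cd300lg, Bmp2 and Sgk1. Of 24 other scavenger, lectin and Fc receptors in the table, 10 reached the level of 20 CPM needed to be counted. Tfrc, the transferrin receptor, which red cell precursors also carry, and Colec12, a scavenger collectin, were higher with the P180 label, Colec12 at 81.5 and 15.5 CPM. Scarb2, a lysosomal membrane receptor, Msr1, scavenger receptor A, and Clec2d were lower, Msr1 at 197 and 403 CPM. Cd36, at 550 and 655 CPM, and Fcgrt, the recycling receptor of IgG, at 310 and 242 CPM, lay within 2-fold. In the Stab2 subset, of 10 such receptors counted, 2 were higher by 2-fold or more with the P180 label, beside 11.0% of genes. There 0 were lower, beside 10.1%, so the lower calls over all endothelial-like cells did not hold in that subset.

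Genes of the uptake machinery were counted against the same 7.31% and 6.72% of all genes. Of 25 counted genes of endocytosis and the lysosome, 1 was higher by 2-fold or more with the P180 label and 2 were lower, with a median of 0.03. Clta, a clathrin light chain, stood at 541 and 257 CPM with the P180 and E18.5 labels, and Psap, the precursor of lysosomal activators, at 273 and 579 CPM. Among 9 counted ligands and partners of the members, Sparc stood at 1324 and 533 CPM and Gas6, a bridge to dying cells, at 42.3 and 181 CPM; the other 7 lay within 2-fold. All 16 endothelial markers lay within 2-fold (median -0.18). This list also named the endothelial-like cells, so its likeness between the libraries is in part set by the naming. In the Stab2 subset 0 of 23 counted genes of endocytosis and the lysosome were higher by 2-fold or more, and 1 was lower. Of 9 ligands and partners counted there, 1 was higher and 2 were lower. The shares of all genes in that subset were 11.0% higher and 10.1% lower.

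RNA of other cells was measured in the same endothelial-like cells. The 10 macrophage genes summed to 26.6 CPM with the P180 label and 17.7 CPM with the E18.5 label, with C1qa, Adgre1, Clec4f, Vsig4, Timd4 and Cd163 at 0 UMIs with the P180 label and none of the list reaching 20 CPM. Without cells that held a macrophage gene UMI, the log2 ratio of Lyve1 was 1.68 and that of Fcgr2b -2.03. Erythroid genes summed to 34264 CPM with the P180 label and 2967 CPM with the E18.5 label, nearly all of it Hbb-bs and Hba-a1, and all 8 counted were higher with the P180 label. In erythroid-like cells labelled P180, Lyve1 stood at 0.251 CPM and Fcgr2b at 0.182 CPM, far under their endothelial levels. The part of this erythroid RNA in the ratios of the members was not tested. Of 11 counted genes of capillaries and large vessels, 9 were lower by 2-fold or more with the P180 label and 1, Aplnr, was higher (median -2.42). Of all genes in this comparison 6.72% were lower and 7.31% higher. Within the Stab2, Rspo3 and Mecom subsets 6 of 8, 6 of 7 and 8 of 9 were lower. The shares of all genes lower there were 10.1%, 11.4% and 12.2%.

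The subsets differed from each other within a library, most clearly in that labelled E18.5, where all 3 hold at least 196 cells. They also differ in quality. With a mitochondrial limit of 10% the Stab2, Rspo3 and Mecom subsets of that library held 71, 133 and 170 cells. Without it, median depths were 2086.5 and 3034 UMIs in the clusters of the Stab2 subset, 5649.5 in the Rspo3 and 3782 in the Mecom subset. Compared with the Rspo3 subset, 7 of the 9 genes stood at least 2-fold higher in the Stab2 subset against 6.09% of 6861 genes, and 0 were lower, against 9.40%. Of 15 other sinusoid genes counted, 7 were likewise higher and 1 was lower. Mrc1 stood at 1213 CPM (1155 to 1273) in the Stab2 subset and 113 CPM (94.7 to 134) in the Rspo3 subset. Dnase1l3 stood at 1224 and 161 CPM, Fcgr2b at 1011 and 199 CPM, Clec4g at 859 and 194 CPM, Oit3 at 384 and 122 CPM, and Clec1b at 198 and 12.8 CPM. Lyve1 stood at 252 CPM in the Stab2 subset and 1.70 CPM (2 UMIs, 0.206 to 6.15) in the Rspo3 subset, the widest difference of the 9. Stab1, at 771 and 618 CPM, and F8, at 1250 and 1088 CPM, lay within 1.25-fold. All 13 other settings gave the same count of 7.

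Compared with the Mecom subset of the same library, 6 of the 9 stood at least 2-fold higher in the Stab2 subset against 4.07% of 6749 genes, and 0 were lower, against 5.04%. Of 16 other sinusoid genes, 10 were likewise higher and 1 was lower, so the pattern is not particular to the members. Clec1b stood at 198 and 22.5 CPM, Fcgr2b at 1011 and 313 CPM, Oit3 at 384 and 142 CPM, and Mrc1 at 1213 and 540 CPM in the Stab2 and Mecom subsets. Clec4g (859 and 389 CPM) and Dnase1l3 (1224 and 533 CPM) were just past 2-fold. Lyve1 did not follow, at 252 CPM (226 to 280) in the Stab2 subset and 256 CPM (230 to 283) in the Mecom subset, a ratio of 0.984 (0.846 to 1.14). In this Mecom subset a Lyve1 UMI was found in 26.6% of cells and a Stab2 UMI in 33.75%. At resolution 2 the Mecom subset was made of clusters of 240 and 80 cells, with Stab2 at 378 and 83.8 CPM. Its summed Lyve1 level is thus one over unlike clusters. With no mitochondrial limit 2 of the 9 were past 2-fold in the Stab2 over the Mecom subset. Between the Mecom and Rspo3 subsets, 4 of the 8 genes counted were at least 2-fold higher in the Mecom subset against 4.79% of 6929 genes, and 0 were lower against 4.86%. These were Lyve1 (256 and 1.70 CPM in the Mecom and Rspo3 subsets), Mrc1 (540 and 113 CPM), Dnase1l3 (533 and 161 CPM) and Clec4g (389 and 194 CPM). Stab1, at 391 and 618 CPM, and F8, at 782 and 1088 CPM, stood lower in the Mecom subset by less than 2-fold. As divided here, Lyve1 was at like levels in the Stab2 and Mecom subsets and had 2 UMIs in the Rspo3 subset. Over the settings run, its log2 ratio of the Stab2 over the Mecom subset went from -0.31 to 0.78.

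With the P180 label the subsets are small, and the pattern is given as values. Against the Rspo3 subset all 9 stood at least 2-fold higher in the Stab2 subset, beside 15.3% of 6982 genes, and 0 lower, beside 18.0%. Of 15 other sinusoid genes counted there, 7 were higher and 2 lower. Mrc1 stood at 1549 CPM (284 UMIs) in the Stab2 subset and 143 CPM (33 UMIs) in the Rspo3 subset, Fcgr2b at 218 CPM (40 UMIs) and 4.34 CPM (1 UMI), and F8 at 1156 and 404 CPM. Against the Mecom subset, Mrc1, at 1549 and 668 CPM, and F8, at 1156 and 499 CPM, stood at least 2-fold higher in the Stab2 subset, 2 of 9 beside 16.0% of 6987 genes, and 0 stood lower, beside 21.2%. Clec4g stood at 376 and 450 CPM, Clec1b at 104 and 120 CPM, and Oit3 at 311 and 347 CPM there, their intervals overlapping.

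**Figure D3:**
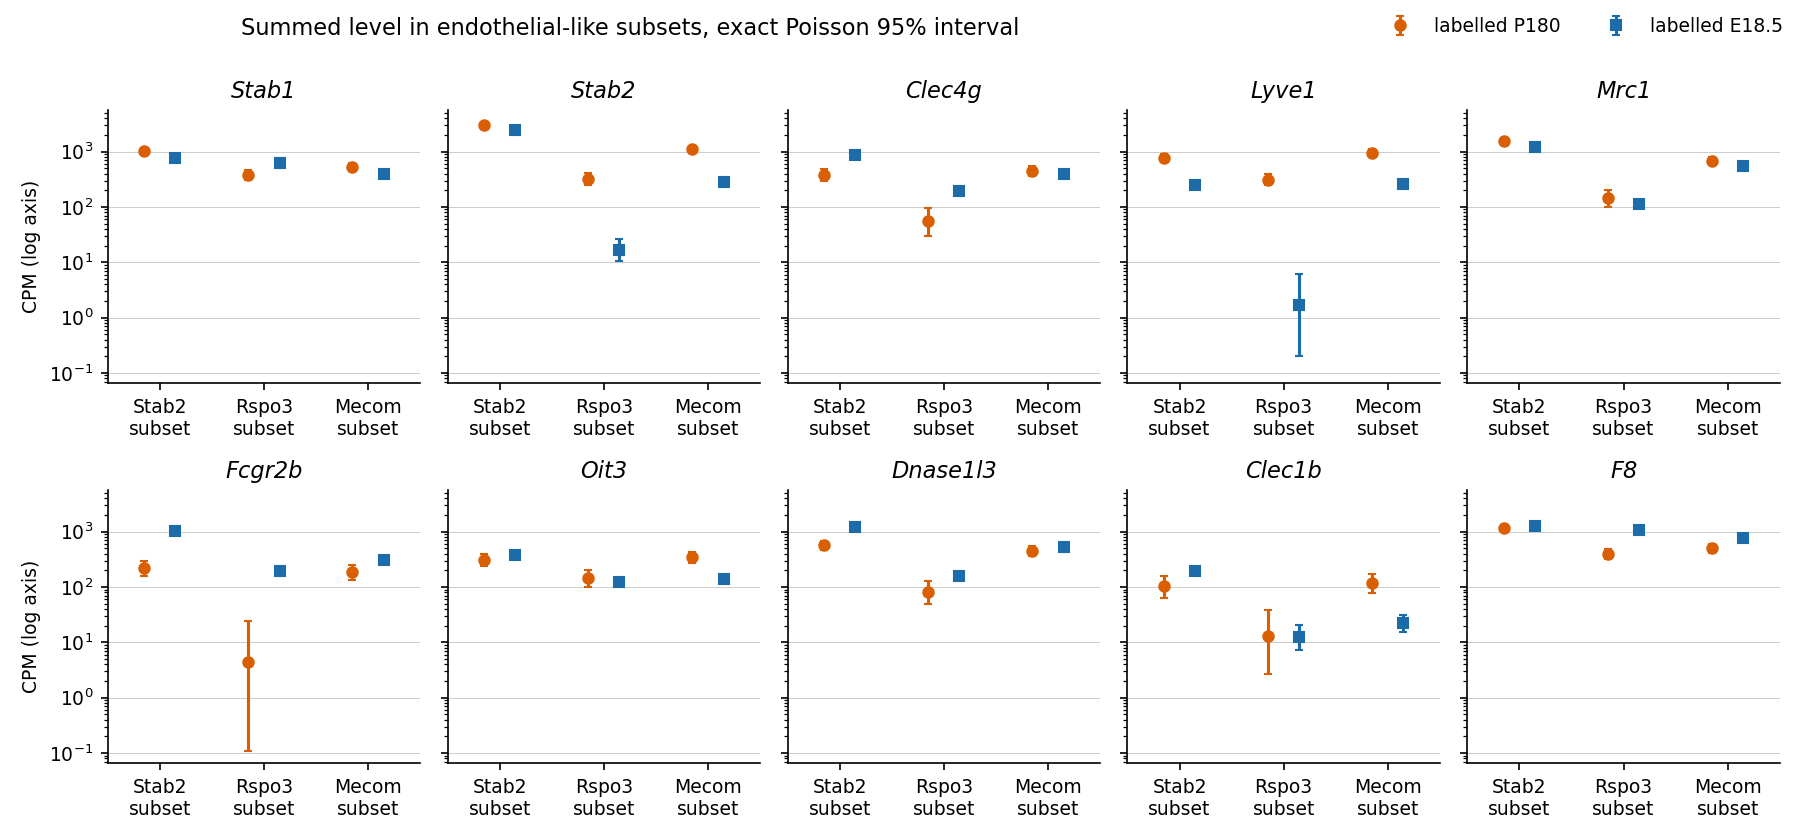
Summed level in CPM (log axis) of each gene in the Stab2, Rspo3 and Mecom subsets, with the P180 label (circles) left of the E18.5 label (squares); bars are exact Poisson 95% intervals. Lyve1 in the Rspo3 subset lies at 313 CPM with the P180 label and 1.70 CPM with the E18.5 label, and Fcgr2b there at 4.34 and 199 CPM.

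Set beside each other across the libraries, the Rspo3 subsets showed the widest differences. Lyve1 had 72 UMIs in 16 of 32 cells labelled P180 (313 CPM) and 2 UMIs in 2 of 196 cells labelled E18.5 (1.70 CPM), a ratio of 184 with a counting interval of 49.1 to 1546. At the level of cells whose Rspo3 UMIs outnumbered those of Stab2 and Mecom, Lyve1 was found in 13 of 28 cells labelled P180 (46.4%) and 3 of 236 labelled E18.5 (1.27%). Stab2 stood at 321 CPM (74 UMIs, 27 of them from 1 cell) and 17.0 CPM (20 UMIs) in the Rspo3 subsets. Rspo3 itself stood at 2223 and 6052 CPM there. With the E18.5 label a cluster of 168 cells with Rspo3 at 1262 CPM had gone to the Stab2 subset. The comparison is thus not one of like cells. Fcgr2b stood at 4.34 CPM (1 UMI) and 199 CPM (234 UMIs), and F8 at 404 and 1088 CPM. Stab1 (378 and 618 CPM), Mrc1 (143 and 113 CPM) and Oit3 (148 and 122 CPM) lay within 2-fold. Clec4g stood at 56.5 and 194 CPM and Dnase1l3 at 82.5 and 161 CPM. Clec1b, at 13.03 CPM (3 UMIs) and 12.8 CPM, was under the level needed to be counted. Of the 8 members counted in these subsets, 1 was thus higher by 2-fold or more with the P180 label, beside 10.3% of 7018 genes, and 3 lower, beside 11.4%.

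In the Mecom subsets 3 of the 9 members counted stood higher by 2-fold or more with the P180 label, beside 14.6% of 7012 genes, and 0 lower, beside 12.2%. These were Lyve1 (957 and 256 CPM), Oit3 (347 and 142 CPM) and Clec1b (120 and 22.5 CPM). Stab1 (530 and 391 CPM), Mrc1 (668 and 540 CPM), Clec4g (450 and 389 CPM), Dnase1l3 (450 and 533 CPM), F8 (499 and 782 CPM) and Fcgr2b (187 and 313 CPM) lay between. Stab2 itself stood at 1131 and 287 CPM, and Mecom was found in 37.5% and 92.2% of the cells of these subsets, so the comparison is not one of like cells. In that subset labelled P180, 89 of 215 Lyve1 UMIs and 36 of 101 Clec4g UMIs came from 1 cell. Of the members, only Lyve1 was higher by 2-fold or more with the P180 label in all 3 subsets as divided here. In the Stab2, Rspo3 and Mecom subsets singly, 11.0%, 10.3% and 14.6% of all genes were. The share of all genes higher in all 3 was not counted. With a mitochondrial limit of 10% the log2 ratio of Lyve1 in the Stab2 subset was 0.78. Fcgr2b was lower with the P180 label in each of the 3 subsets. Its log2 ratio was -2.21 in the Stab2, -5.52 (-10.83 to -3.03, from 1 UMI) in the Rspo3 and -0.74 in the Mecom subset, the last short of 2-fold.

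How many of the 9 genes other than Stab2 a single cell showed was compared at equal depth, with each cell thinned to 1000 UMIs. In the Stab2 subset the median was 4 genes with both labels, and 34.5% of 55 cells labelled P180 and 43.2% of 474 cells labelled E18.5 showed 5 or more. In the Rspo3 subset the medians were 1 and 2 genes, and 3.12% of 32 and 1.54% of 195 cells showed 5 or more. In the Mecom subset the medians were 3 and 2 genes, with 26.1% of 23 and 10.1% of 318 cells at 5 or more. Each share comes from 1 random draw. In another draw of the Rspo3 and Mecom subsets together, 0 of 55 cells labelled P180 showed 5 or more, beside 1 and 6 above. With the E18.5 label 37 of 513 did, beside 3 and 32. The shares of the small subsets labelled P180 thus move with the draw. Before thinning, 7 of 111 and 47 of 1016 endothelial-like cells carried all 10. Among other cells, after thinning, the median over the 10 genes was 0 in every named class of both libraries, and in these classes 1 cell, a B cell-like cell labelled E18.5, showed 5 or more.

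**Figure D4:**
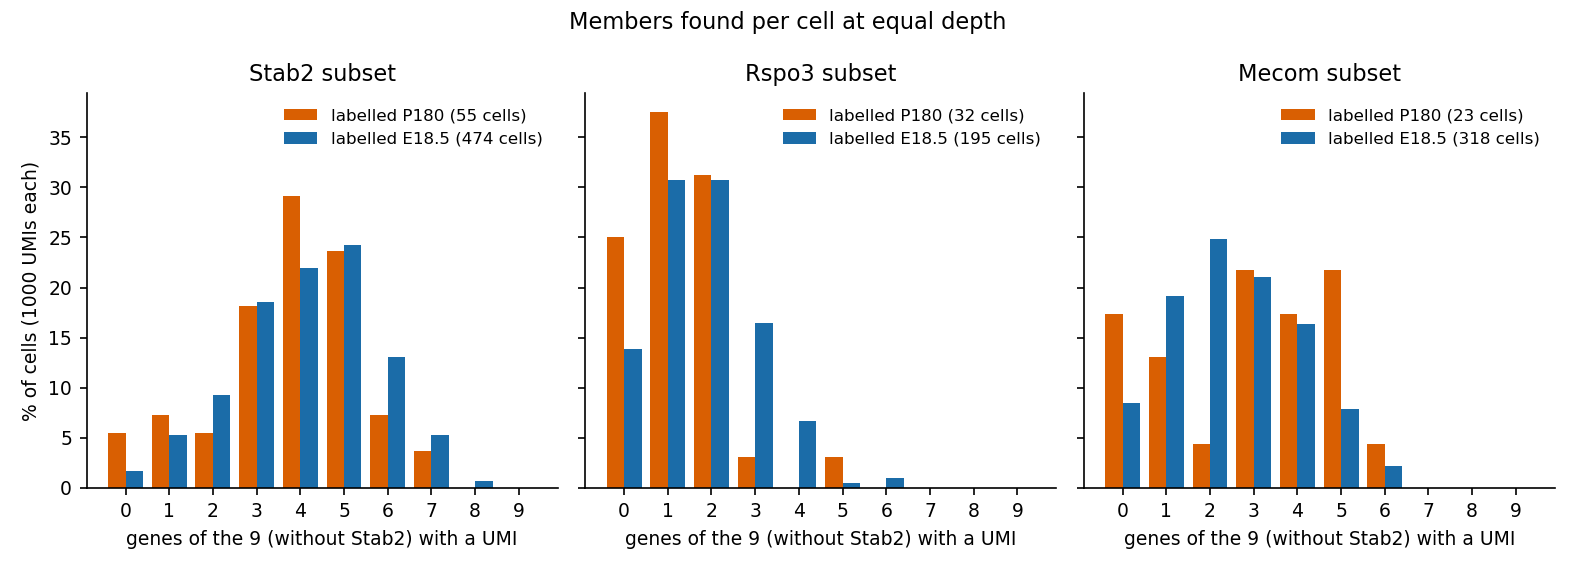
Share of cells (%) by the number of the 9 genes other than Stab2 with at least 1 UMI, each cell thinned to 1000 UMIs, in the Stab2, Rspo3 and Mecom subsets; bars for the P180 label stand left of bars for the E18.5 label. The median is 4 genes in the Stab2 subset with both labels, and 1 and 2 genes in the Rspo3 subset with the P180 and E18.5 labels.

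Outside endothelium the members split by cell type, given here for the named classes. Clusters without a name held 9.21% of the UMIs of the 10 genes with the P180 label (501 cells). With the E18.5 label they held 2.91% (243 cells). Macrophage-like cells, a named class of 194 cells with the E18.5 label, held Mrc1 at 335 CPM (306 to 366) in 69.6% of cells and Clec1b at 119 CPM (102 to 138) in 39.7%. Their thinned shares were 27.0% and 10.6%, against 0.425% and 0.212% in T cell-like cells. Fcgr2b stood there at 92.5 CPM, Dnase1l3 at 82.3 CPM and Stab1 at 38.8 CPM, while Clec4g, Lyve1, Oit3 and F8 stood at 0.680 to 4.76 CPM. No cluster labelled P180 took the name of macrophages. The class joined 2 clusters that both had C1qa, C1qb and C1qc among their markers. In the cluster of 158 cells, led by C1qa and C1qb, Mrc1 stood at 395 CPM, Fcgr2b at 109 CPM and Clec1b at 122 CPM. In the cluster of 36 cells, led by Negr1, Fcgr4 and Fcer1g with no marker of macrophages among its 10 leading genes, they stood at 21.2, 8.47 and 102 CPM. Clec1b in the Stab2 subset exceeded that in macrophage-like cells, at 198 CPM (175 to 223).

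Fcgr2b was the member most widely found in leukocytes. With the E18.5 label it stood at 117 CPM (96.8 to 140) in monocyte-like cells, 79.0 CPM (72.5 to 86.0) in B cell-like cells, where it is the known brake on antibody receptor signals, and 28.1 CPM in plasma cell-like cells, against 4.61 CPM in T cell-like cells. With the P180 label it stood at 18.48 CPM (13.4 to 24.8) in B cell-like cells and 40.6 CPM (37.9 to 43.5) in neutrophil-like cells. An Fcgr2b UMI was found in 17.4% of 201 B cell-like cells labelled P180 and 27.5% of 1373 labelled E18.5, and in 2.02% (0.553 to 5.09) and 6.80% (5.53 to 8.27) after thinning. The class holds different clusters in each library. With the P180 label 122 of the cells lay in a cluster led by Ebf1, Ighm, Bach2 and Vpreb3, without Ms4a1 or Bank1 among its markers, at 14.4 CPM (9.22 to 21.4). The cluster of 79 cells that did have Ms4a1 and Bank1 stood at 28.1 CPM (17.1 to 43.3). The 4 clusters labelled E18.5 all had these markers and ranged from 48.8 to 123 CPM. In neutrophil-like cells labelled P180 Fcgr2b ranged from 6.38 CPM to 65.6 CPM over the 4 clusters. The highest was a cluster of 141 cells led by Elane, Prtn3 and Mpo, with a UMI in 85.8% at a median of 39456 UMIs. Over the whole class the share was 40.6%, and 2.28% after thinning. Neutrophil-like cells labelled E18.5 stood at 12.5 CPM (17 UMIs). Of these 399 cells 379 lay in a cluster led by S100a9, S100a8 and Retnlg, at a median of 2842 UMIs. The neutrophil-like classes are thus also not of like cells or depth.

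Dnase1l3 was shared with dendritic-like cells. With the E18.5 label it stood at 187 CPM (170 to 205) in 154 dendritic-like cells. Its interval overlapped that of the Rspo3 subset (161 CPM, 139 to 185). A Dnase1l3 UMI was found in 61.0% of dendritic-like cells, at a median of 17794.5 UMIs, and in 31.1% of the Rspo3 subset. After thinning these shares were 17.6% and 13.3%. Clec1b stood at 15.5 CPM in the dendritic-like cells, in which its neighbour Clec9a stood at 439 CPM. In macrophage-like cells Clec9a stood at 34.7 CPM, under the 119 CPM of Clec1b, and in the Stab2 subset labelled E18.5 at 81.4 CPM against 198 CPM of Clec1b. No cluster labelled P180 took the name of dendritic cells, and a cluster of 74 cells led by Cd74, Cst3 and H2-Aa stayed unnamed. Of the 411 Dnase1l3 UMIs labelled P180, 54.7% lay in endothelial-like cells.

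Genes with a pattern like that of the 10 were looked for over 19 cell groups of at least 50 cells. By the Pearson correlation of log2(CPM + 10) with the mean of the members, Kdr, the main VEGF receptor, came first at 0.983, followed by Flt4 at 0.982, the VEGF-C receptor, and Arhgef15 at 0.982, an exchange factor of endothelium. Gpr182, a sinusoidal chemokine scavenger, reached 0.971 and Bmp2, the BMP ligand of sinusoids, 0.971. Of the members, Oit3 followed the mean most closely at 0.977, and Clec1b (0.815) and Fcgr2b (0.833) least. The mean includes each member itself, and Stab2, which divided the subsets. Kdr was among the markers that named the endothelial-like cells. High correlations are thus in part set by the way the mean and the groups were made. The groups share libraries and depths, and most have levels near 0, so these are descriptions over 19 points.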

How the data were processed

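Droplet-based 3′ single-cell RNA sequencing (10x Chromium v3 chemistry, Illumina NovaSeq, per the labels' protocols) was made of 1 liver library for each stage label. The authors deposited raw UMI counts for each gene in each barcode. Per the file headers these come from Cell Ranger 7.1.0. The submitters' processing notes also name fastp, Trimmomatic, Seurat, edgeR and mm10. The rule that separated cells from empty droplets is not stated in the sources used here.

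From these counts, barcodes with at least 200 genes, 500 UMIs and under 25% mitochondrial UMIs were kept, and the highest Scrublet scores were left out as doublets at 0.8% per 1000 barcodes (735 with the P180 label and 178 with the E18.5 label). The files hold 90128038 UMIs over 9771 barcodes with the P180 label and 37709972 UMIs over 9871 barcodes with the E18.5 label. Each library was clustered alone with scanpy 1.11.5 and leidenalg 0.10.2 (2000 variable genes without the 10 members, 30 components, 15 neighbours, resolution 1, seed 1). A cluster was named where at least 3 markers of a class were among its 50 leading genes, and otherwise stayed unnamed. The single endothelial-like cluster labelled P180 was clustered again to give the subsets.

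Levels are UMIs summed over a group and scaled to counts per 1000000 (CPM), with exact Poisson 95% intervals; ratios have the exact conditional interval of 2 Poisson counts and shares of cells exact binomial intervals. PCR duplicates are removed by the UMI, and all intervals cover counting error only. Genes with a mean of at least 20 CPM over both groups were counted, and a difference of at least 2-fold was called. With 1 library for each label no test was made. The functions were tested on simulated data. All 10 members are named in each comparison of the libraries. Of the other lists not every gene past 2-fold is named, and of the capillary and large vessel genes only Aplnr is. 1 gene of the endocytosis and lysosome list is not reported here. The members, lists and naming rule were chosen with earlier results of these data known. Alternatives were another mitochondrial limit, doublet, clustering, weighting, scaling and subset choice; leaving Stab2 out of the counts per cell and of the Rspo3 and Mecom subsets was chosen after seeing the data.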

Additional observations from a re-analysis of the deposited data

Results flagged for a closer look

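The 10 genes were also strong in barcodes that the report left out for a mitochondrial share of 25% or more. With the P180 label these were 122 barcodes, in which the 10 genes summed to 1857 CPM (1645 to 2089), against 62.2 CPM in the 9582 barcodes under the limit. With the E18.5 label they were 2305 barcodes at 3258 CPM (3186 to 3330), against 859 CPM in 4721 barcodes under the limit. Both values lie above the level that 3 counts would give, 20.04 and 1.23 CPM. Stab2 alone stood at 501 and 758 CPM in these barcodes, Stab1 at 441 and 436 CPM, and Lyve1 at 134 and 75.0 CPM. The limit thus left out 278 and 7947 UMIs of the 10 genes with the P180 and E18.5 labels, beside 5587 and 26349 under it. Why these barcodes are rich in sinusoidal transcripts was not tested.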

How the results depend on the processing

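Of 720 values of single members under other settings, 557 stayed within the counting interval of the reported value and 163 moved outside it; no value past 2-fold changed its sign. Members short of 2-fold did change sign, among them Stab1, Mrc1 and F8 in the Stab2 subset. The counts that moved were few. In endothelial-like cells the members lower with the P180 label were 1 as reported, 2 with no doublets left out, 3 with each cell weighted equally and 3 without cells holding a macrophage gene UMI. In the Stab2 subset those higher were 1 as reported and 0 with a mitochondrial limit of 10%, and those lower were 3 as reported, 5 with that limit and 1 with no limit. For the Stab2 over the Mecom subset labelled E18.5, the count was 6 as reported, 2 with no mitochondrial limit, 8 with a limit of 10% (Stab1 and F8 then having log2 ratios of 1.22 and 1.05) and 6 or 7 in the other settings. The cause of these moves was not tested. The other counts, 7 of 9 over the Rspo3 subset and 10 of 10 over other cells, held in every setting run, except 9 of 10 with the P180 label when scaled by the median of ratios; all 10 ratios stayed past 2-fold there, the lowest a log2 ratio of 2.20, and 1 gene fell short of the 20 CPM needed to be counted. Counts over all genes depend on the filter: genes at least 2-fold higher in endothelial-like cells labelled P180 were 515 as reported, 3181 with no filter and 412 from 50 UMIs, and those lower 474, 4774 and 818. In the Stab2 subset these were 736, 2555 and 195 higher, and 675, 4949 and 598 lower. With no filter, genes past 2-fold in the Stab2 subset labelled E18.5 were 2853 higher and 3162 lower over the Rspo3 subset (418 and 645 as reported), and 2664 higher and 2777 lower over the Mecom subset (275 and 340 as reported). For endothelial-like over other cells they were 7709 higher and 10320 lower with the P180 label (3271 and 701 as reported; 5642 and 2934 from 50 UMIs), and 4540 higher and 9415 lower with the E18.5 label (1643 and 1219 as reported; 3676 lower from 50 UMIs). Resolution 2 and another seed moved 0 of 60 values each. Depth limits the subsets labelled P180 most, with 183392 UMIs in the Stab2 subset against 1351708 with the E18.5 label. No paired analysis was possible because each label has 1 library.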

Other observations

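Stab2 was also found outside endothelium in the library labelled E18.5. T cell-like cells stood at 40.3 CPM (33.0 to 48.8) with a UMI in 9.11% of 472 cells, and 13 of the 105 UMIs came from 1 cell. In the same cells Stab1 and Clec4g stood at 4.22 CPM each, whereas in endothelial-like cells of that library Stab2, Stab1 and Clec4g stood at 936, 589 and 492 CPM. A cluster of 249 T cell-like cells reached 60.3 CPM, and NK cell-like cells stood at 13.9 CPM (7.75 to 22.8).

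F8 stood apart in the erythroid-like cells labelled P180. It had 139 UMIs there, in 118 of 6904 cells with at most 4 in 1 cell, or 3.17 CPM (2.66 to 3.74). The other 9 genes stood at 0 to 0.251 CPM in the same cells.

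Lyve1 was unevenly spread over neutrophil-like cells labelled P180. A cluster of 366 cells held it at 10.2 CPM (7.55 to 13.6) with a UMI in 9.29% of cells, and a cluster of 141 cells at 0.184 CPM (1 UMI). Stab2 stood at 1.28 CPM and 0.184 CPM in these clusters.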
